A study of Arabidopsis thaliana with 16 samples.

Results

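The regions described here are the wide ENAP1 domains of Arabidopsis thaliana Col-0 seedlings kept in air. They are the 346 peaks of the Col-0 air set that were 700 bp or wider on chromosomes 1 to 5, out of 7852 peaks in that set, or 4.41%, and out of 20937 peaks in all 4 sets. ENAP1 was mapped by chromatin immunoprecipitation followed by sequencing (ChIP-seq), through its green fluorescent protein tag, with input DNA as the control. Dark-grown whole seedlings, kept at 24 C for 3 days, were exposed to ethylene or air for 4 hours. The conditions were ein2 in 10 ppm ethylene, ein2 in air, Col-0 in 10 ppm ethylene and Col-0 in air, each with 2 ChIP and 2 input samples, 16 samples in all. Col-0 is the wild-type accession, and ein2 plants lack the ethylene response. The sources used here give neither the allele of ein2 nor the promoter that drove the tagged ENAP1, and the series holds no ChIP from plants without the tag. Signal that the antibody gives without ENAP1 therefore cannot be told apart from binding. Peaks alone cannot check the ein2 label, and the labels do not say whether replicates came from separate batches of plants.

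Ethylene is a gaseous hormone that is perceived by receptors in the endoplasmic reticulum. In the absence of ethylene the kinase CTR1 holds the membrane protein EIN2 inactive, and in its presence a part of EIN2 moves to the nucleus, where the transcription factors EIN3 and EIL1 act on target genes. ENAP1 is a nuclear protein that binds EIN2 and takes part in histone acetylation, a chromatin mark of active genes. Broad stretches of a chromatin protein can lie along gene bodies, while sharp peaks tend to mark short sites such as those near gene starts.

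The wide domains were chosen by their width in Col-0 air, so their width, fold and q there are description. They measured 701 to 2517 bp with a median of 851.5 bp, while the 7506 narrower peaks of the same set measured 135 to 699 bp with a median of 317 bp. Together they held 317526 bp, or 11.05% of the bases in the set. Just inside the limit lay domains of 701 bp at cPT1, EXO70F1 and MAPKKK19, and just outside it peaks of 699 bp at AT3G14220 and FBS3. Fold enrichment over the local background, the authors' own value for each peak, had a median of 5.02 in wide domains and 4.32 in narrower peaks. The highest fold was 14.3 in wide domains, against 19.9 in narrower peaks, so the widest regions were not the most enriched ones. Chromosome 5 had 99 wide domains (5.29% of its peaks), chromosome 3 had 82 (5.14%) and chromosome 1 had 74 (3.64%). Chromosome 2 had 46 (3.82%) and chromosome 4 had 45 (3.91%), beside 4.41% over all 5 chromosomes.

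Each condition had 1 peak set for both replicates, with 4696 peaks in ein2 ethylene, 3252 in ein2 air, 5137 in Col-0 ethylene and 7852 in Col-0 air. No replicate spread exists for any value below, so no difference between conditions was tested. The peak files hold no read counts, and depth is unknown. The lowest −log10 q kept by the authors was 6.57 in ein2 ethylene, 10.9 in ein2 air, 10.8 in Col-0 ethylene and 13.4 in Col-0 air, so the sets do not reach equally weak regions. The air ChIP libraries are numbered without a letter and the ethylene ones with the letter C, and if this marks separate handling, it cannot be told apart from ethylene. A width given for another set is that of the widest peak overlapping the domain. Some domains met 2 shorter peaks there, and a set with none on a domain can hold a peak elsewhere on the gene. Intervals are 95% Wilson intervals over regions, which cover counting error only, and neighbouring regions are not independent of each other.

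The widest domain lay inside AT4G18670, at positions 10275664 to 10278180 of chromosome 4 in TAIR10, and covered 75.5% of that gene. It was 2517 bp wide with a fold of 3.75. The overlapping peak was 2568 bp wide in Col-0 ethylene and 790 bp wide in ein2 ethylene, and ein2 air had no peak there. The second domain lay in LRX3, a leucine-rich repeat extensin of the cell wall, at positions 7758897 to 7761048 of chromosome 4. Overlapping peaks at LRX3 measured 2321 bp in Col-0 ethylene, 2042 bp in ein2 air and 1655 bp in ein2 ethylene, against 2152 bp in Col-0 air. LRX3 was thus covered in all 4 sets, and its peak was the widest one of both ein2 sets. A further domain of 1010 bp lay in the gap beside LRX3 and touched no gene. AT3G24480, entered with LRX3 in the list of cell wall genes, had a domain of 1199 bp over 67.4% of its span. Its overlapping peak was 1117 bp wide in Col-0 ethylene and 872 bp wide in ein2 air, and ein2 ethylene had none on the domain. Genes that resemble each other in sequence can share reads, so the assignment of signal among such genes is uncertain.

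The other domains among the 10 widest lay over genes of several functions. AT3G54363, a gene of 468 bp, was covered whole by a domain of 2102 bp that reached into its neighbours. UNE1 had 1913 bp, ADT5, an arogenate dehydratase of phenylalanine synthesis, 1607 bp, and AT1G75960 1545 bp. Of the transcription factor genes, ERF-1 had 1675 bp, GATA1 1604 bp and WRKY15 1581 bp. In GATA1 the width was 1320 bp in Col-0 ethylene, 1575 bp in ein2 air and 1202 bp in ein2 ethylene, against 1604 bp in Col-0 air. In WRKY15 it was 611 bp in Col-0 ethylene, 733 bp in ein2 air and 583 bp in ein2 ethylene, against 1581 bp in Col-0 air. The WRKY15 domain met 1 peak in Col-0 ethylene, over 38.6% of it, a pair of 495 and 733 bp in ein2 air, over 76.9%, and a pair of 342 and 583 bp in ein2 ethylene, over 55.4%. GATA1 thus had a peak of over 1000 bp in every set, while the WRKY15 stretch of Col-0 air was in part covered elsewhere and was split in the ein2 sets.

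**Figure D1:**
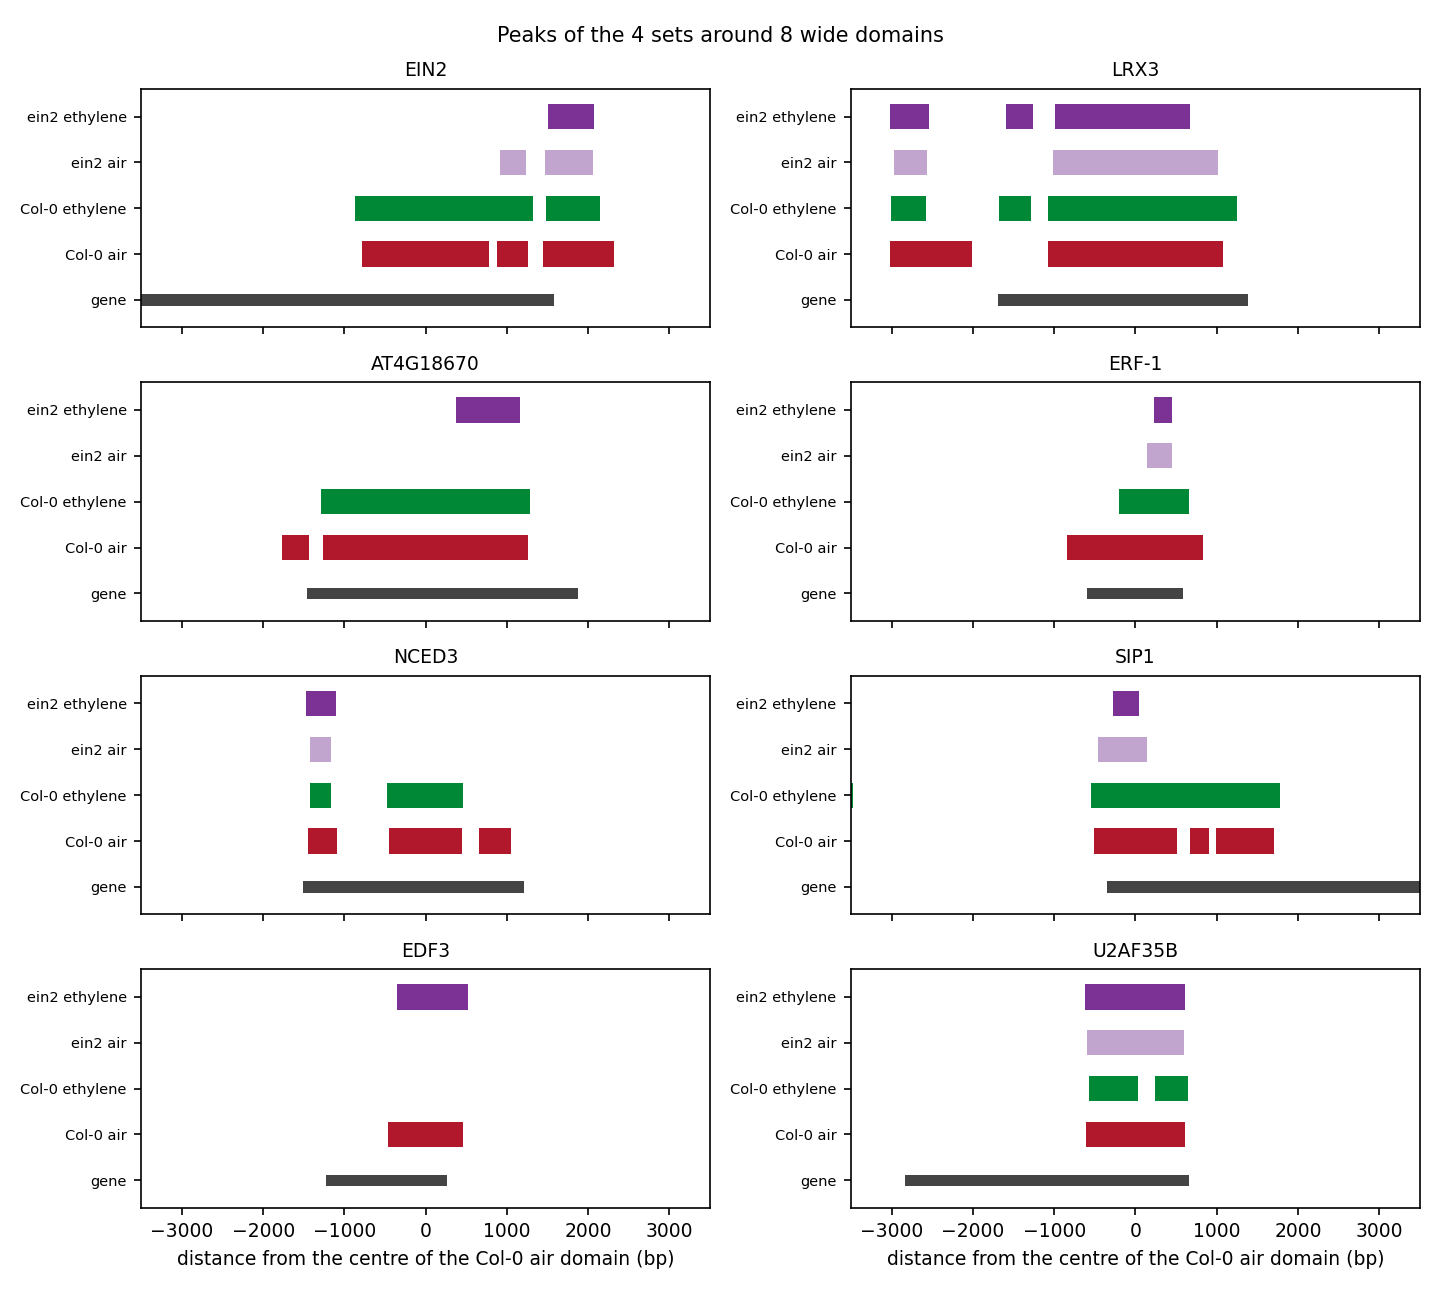
Peaks of ein2 ethylene, ein2 air, Col-0 ethylene and Col-0 air (bars, from top to bottom) and the gene span (thin bar, lowest) around 8 wide domains, by distance in bp from the centre of the Col-0 air domain and cut at 3500 bp on each side. The long stretch in EIN2 and AT4G18670 appears in the Col-0 sets, that in LRX3 in all 4 sets, and that in EDF3 in ein2 ethylene and Col-0 air. At U2AF35B it is whole in the ein2 sets and Col-0 air and in 2 pieces in Col-0 ethylene.

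Domains over genes of the ethylene pathway differed from each other in the sets that shared them. EIN2 had the ninth widest domain, 1557 bp at positions 791040 to 792596 of chromosome 5, inside the gene and over 26.1% of its span. In Col-0 ethylene a peak of 2189 bp lay over it, and neither ein2 set had a peak on it. A peak of 314 bp in ein2 air lay further along the gene, and a second wide domain of 871 bp at the gene's edge, shared with IDH-V, an isocitrate dehydrogenase, had overlapping peaks in all of the other sets. The ein2 sets thus lacked the inner stretch and still had a peak at the gene's edge. EBF1, an F-box protein that marks EIN3 for degradation, had a domain of 753 bp with an overlapping peak of 392 bp in ein2 ethylene and none in Col-0 ethylene or ein2 air. EIN3 had no wide domain. At EIN3 a peak of 1922 bp in Col-0 ethylene spanned 65.0% of the gene, a peak of 204 bp lay in ein2 ethylene and one of 189 bp in Col-0 air, and ein2 air had none. ENAP1 itself (AT3G11100) also fell below the limit, with 616 bp in Col-0 ethylene, 355 bp in ein2 air and 310 bp in ein2 ethylene, against 509 bp in Col-0 air; any part of the tagged copy's DNA in this signal was not tested.

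Of the ERF and EDF factors, some of which act downstream of EIN3, 3 of 22 had a wide domain. ERF-1 (AT4G17500), an activator, is a different gene from ERF1 (AT3G23240), a list member that had no Col-0 air peak. ERF-1 was covered along 100% of its span by a domain at positions 9758963 to 9760637 of chromosome 4. Its peak was 873 bp wide in Col-0 ethylene, 312 bp in ein2 air and 227 bp in ein2 ethylene, against 1675 bp in Col-0 air. ERF4, a repressor, gave a similar order with 836 bp in Col-0 ethylene, 379 bp in ein2 air and 364 bp in ein2 ethylene, against 974 bp in Col-0 air. At EDF3 the pattern was another one: the domain of 930 bp met a peak of 871 bp in ein2 ethylene, and no peak in Col-0 ethylene or ein2 air. ERF4 lay in a run of 3 wide domains within 5650 bp, flanked by intergenic domains of 957 bp and 820 bp. Neither flanking domain had a peak in either ethylene set.

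Wide domains were found in the other peak sets more often than narrower peaks were. In Col-0 ethylene 291 of 346 wide domains had an overlapping peak, or 84.1% (79.9 to 87.6), against 57.0% of narrower peaks (55.8 to 58.1) and 58.2% of all Col-0 air peaks. In ein2 air the share was 69.4% (64.3 to 74.0) for wide domains, against 39.2% (38.1 to 40.4) for narrower peaks and 40.6% for all. In ein2 ethylene it was 68.5% (63.4 to 73.2) for wide domains, against 50.7% (49.6 to 51.8) for narrower peaks and 51.5% for all. A wide region has more room to meet another peak, but the order was also seen at the summit, a point that does not grow with width: the Col-0 air summit lay in a peak for 82.9% of wide domains and 56.8% of narrower peaks in Col-0 ethylene, for 67.6% and 39.1% in ein2 air, and for 64.7% and 50.4% in ein2 ethylene. With equal numbers of peaks taken from every set, 241 wide domains were left, and 88.4% of them had a peak in the Col-0 ethylene set, 88.8% in ein2 air and 67.2% in ein2 ethylene. Whether Col-0 ethylene stood above ein2 air thus depended on the set sizes. The ein2 shares also depended on the rule. A single peak covered at least 50% of the length for 37.6% of wide domains in ein2 air and 37.0% in ein2 ethylene. Domains that only several peaks together covered to that extent were not counted. With the common −log10 q minimum of 13.4 the ein2 ethylene share was 42.5%.

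Fold enrichment was higher in the wide domains, and presence in the ein2 sets went up with it. Fold was split into 4 classes that hold like numbers of wide domains. In the highest class, from 6.58 to 14.3, the share with a peak was 94.3% for wide domains, against 91.5% for narrower peaks, in Col-0 ethylene. It was 100% for wide domains in both ein2 sets, against 95.1% for narrower peaks in ein2 air and 98.9% in ein2 ethylene. Strong regions were shared whatever their width. In the lowest class, from 1.74 to 4.00, 69 of 87 wide domains, or 79.3% (69.6 to 86.5), had a peak in Col-0 ethylene, against 45.1% (43.4 to 47.0) of narrower peaks. In ein2 air the same class gave 29.9% (21.3 to 40.2) for wide domains, against 13.02% (11.9 to 14.3) for narrower peaks. In ein2 ethylene it gave 24.1% (16.4 to 34.1) for wide domains, against 21.5% (20.05 to 23.02) for narrower peaks, with overlapping intervals, and at the summit it gave 18.4% for wide domains, against 21.02% for narrower peaks. For wide domains in Col-0 ethylene the share did not go up steadily with fold, since it was 70.9% in the second class and 91.9% in the third. The weakly enriched wide domains thus had a peak in Col-0 ethylene far more often than in either ein2 set. With the common −log10 q minimum, the lowest class gave 19.5% in ein2 air, 4.598% in ein2 ethylene and 71.3% in Col-0 ethylene, and with equal numbers of peaks its 19 remaining domains gave 52.6% in ein2 air, 5.26% in ein2 ethylene and 100% in Col-0 ethylene.

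**Figure D2:**
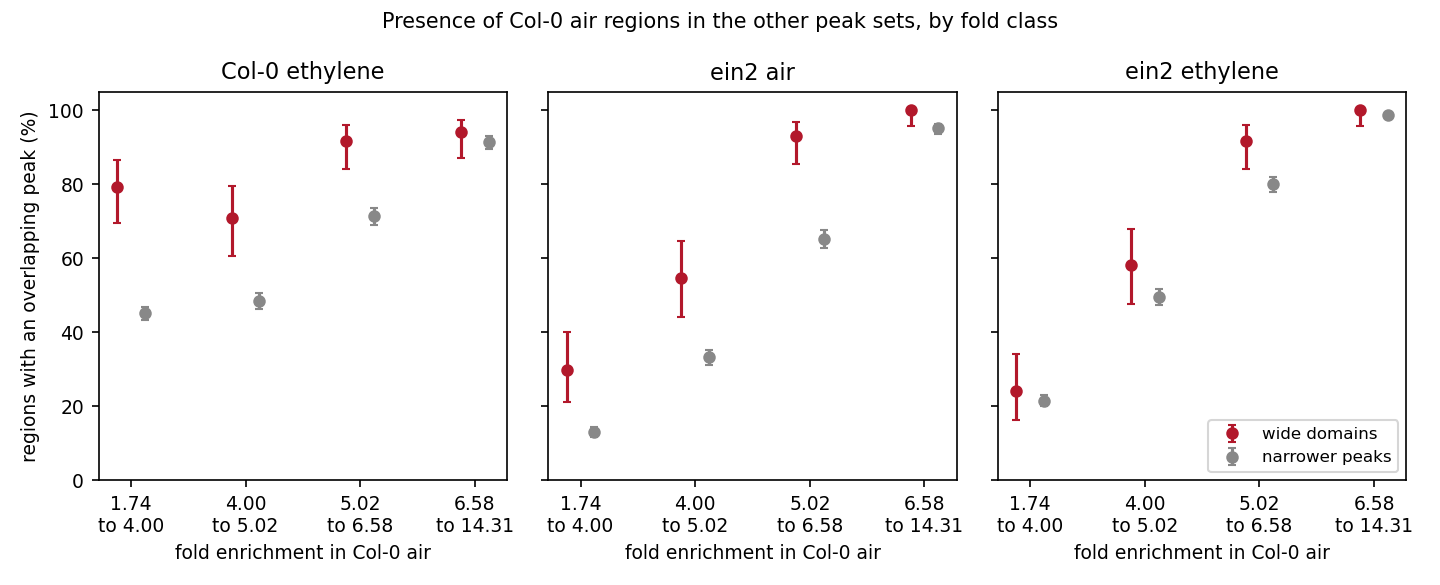
Share of Col-0 air regions with an overlapping peak in each other set (vertical axis, %), in 4 classes of fold enrichment in Col-0 air (horizontal axis), for wide domains (red) and narrower peaks (grey), with 95% Wilson intervals as bars. In the lowest class 79.3% of wide domains, against 45.1% of narrower peaks, had a peak in Col-0 ethylene, while in ein2 ethylene the shares were 24.1% and 21.5%.

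All of the other sets held a peak on 189 wide domains, or 54.6% (49.4 to 59.8), against 27.9% of narrower peaks. None of them did on 18, or 5.20% (3.32 to 8.07), against 26.3% of narrower peaks. The next largest group was the 56 domains with a peak in Col-0 ethylene and in neither ein2 set, 16.2% of wide domains and 16.3% of narrower peaks. Its median fold was 3.58, and 92.9% of its summits lay in a protein-coding gene. EIN2, the beta-xylosidase gene BXL1 (1346 bp), the brassinosteroid gene DET2 (985 bp) and the cytokinin synthesis gene IPT5 (957 bp) belonged to it. A further 37 domains lacked a peak in Col-0 ethylene and had one in an ein2 set. Of these, 17 had it in ein2 ethylene alone, 16 in both ein2 sets and 4 in ein2 air alone. In that order they were 4.91%, 4.62% and 1.16% of wide domains, against 10.4%, 4.62% and 1.63% of narrower peaks. LBD38, a repressor of nitrogen-responsive genes, is an example: its domain of 1033 bp with a fold of 11.1 met peaks of 986 bp in ein2 air and 1075 bp in ein2 ethylene, and none in Col-0 ethylene. That domain lay mostly beyond the gene's edge, over 7.29% of LBD38, and a Col-0 ethylene peak of 1131 bp lay on another stretch, over 60.6% of the gene.

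**Figure D3:**
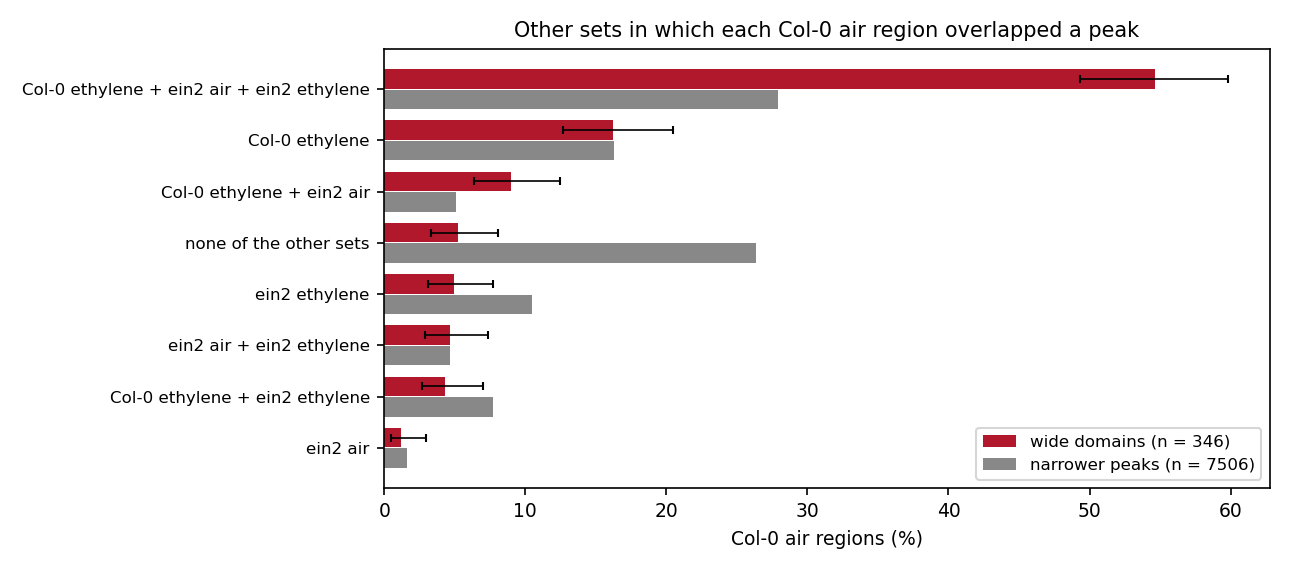
Share of Col-0 air regions (horizontal axis, %) by the other sets in which they overlapped a peak, for wide domains (red, with 95% Wilson intervals) and narrower peaks (grey). All of the other sets held a peak on 54.6% of wide domains, against 27.9% of narrower peaks, and none did on 5.20% of wide domains, against 26.3% of narrower peaks.

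The 5 widest domains with no peak elsewhere were an intergenic one of 957 bp beside ERF4, one of 928 bp at the tRNA gene AT5G56975, one of 923 bp at AT4G13130, one of 907 bp at RGLG3, a RING ubiquitin ligase, and one of 888 bp at GT2, a trihelix transcription factor. Their folds ran from 2.88 to 4.74. The −log10 q was 14.2 at AT5G56975 and 14.3 at GT2, close to the Col-0 air minimum of 13.4, and at most 30.9 among the 5. PP2CA, a phosphatase that restrains abscisic acid signalling, carried a pair of wide domains of 794 bp and 851 bp at its ends, and neither was met by a peak in another set.

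Wide domains were often not wide elsewhere. The widest overlapping peak was 700 bp or more for 168 domains in Col-0 ethylene, or 48.6% (43.3 to 53.8), for 51 in ein2 air, or 14.7% (11.4 to 18.9), and for 59 in ein2 ethylene, or 17.1% (13.5 to 21.4). Over all Col-0 air peaks the shares were 0.93% in ein2 air, 1.44% in ein2 ethylene and 4.18% in Col-0 ethylene. The median of the widest overlapping peak was 755 bp in Col-0 ethylene, 495 bp in ein2 air and 482 bp in ein2 ethylene, where the domains concerned had medians of 859, 858.5 and 855 bp in Col-0 air, in the same order of sets. Since the domains were picked for width in Col-0 air, a smaller width elsewhere is in part built into the choice. The peak was wider than in Col-0 air for 95 of 291 domains in Col-0 ethylene, 5 of 240 in ein2 air and 12 of 237 in ein2 ethylene. Peaks covered 41.5% of the domains' bases in ein2 air, 41.3% in ein2 ethylene and 66.1% in Col-0 ethylene.

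The sets themselves differed in how many wide peaks they held and in how wide these were. The widest peak was 23126 bp in Col-0 ethylene, 2042 bp in ein2 air, 1655 bp in ein2 ethylene and 2517 bp in Col-0 air. The widest Col-0 ethylene peak that overlapped a wide domain was 2568 bp. Peaks of 700 bp or more numbered 328 in Col-0 ethylene (6.39% of its peaks), 67 in ein2 air (2.06%) and 118 in ein2 ethylene (2.51%), against 346 in Col-0 air. A wide domain of Col-0 air was overlapped by 51 of these in ein2 air (76.1%), by 59 of 118 in ein2 ethylene, and by 166 in Col-0 ethylene (50.6%). When each set gave its widest peaks in the same share as in Col-0 air, with minima of 807 bp in Col-0 ethylene, 584 bp in ein2 air and 603 bp in ein2 ethylene, the share of wide domains met by such a peak was 38.4% for Col-0 ethylene, 25.7% for ein2 air and 24.9% for ein2 ethylene. The gap between Col-0 ethylene and the ein2 sets was then smaller, and its direction the same. Within its own set, the overlapping peak was wider than a median of 91.3% of peaks in ein2 air, 89.4% in ein2 ethylene and 94.8% in Col-0 ethylene. Over all overlapping regions, width in Col-0 air and in the other set had a Spearman correlation of 0.602 in Col-0 ethylene (4567 regions), 0.612 in ein2 air (3186) and 0.545 in ein2 ethylene (4042), across regions that share their libraries and peak caller.

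**Figure D4:**
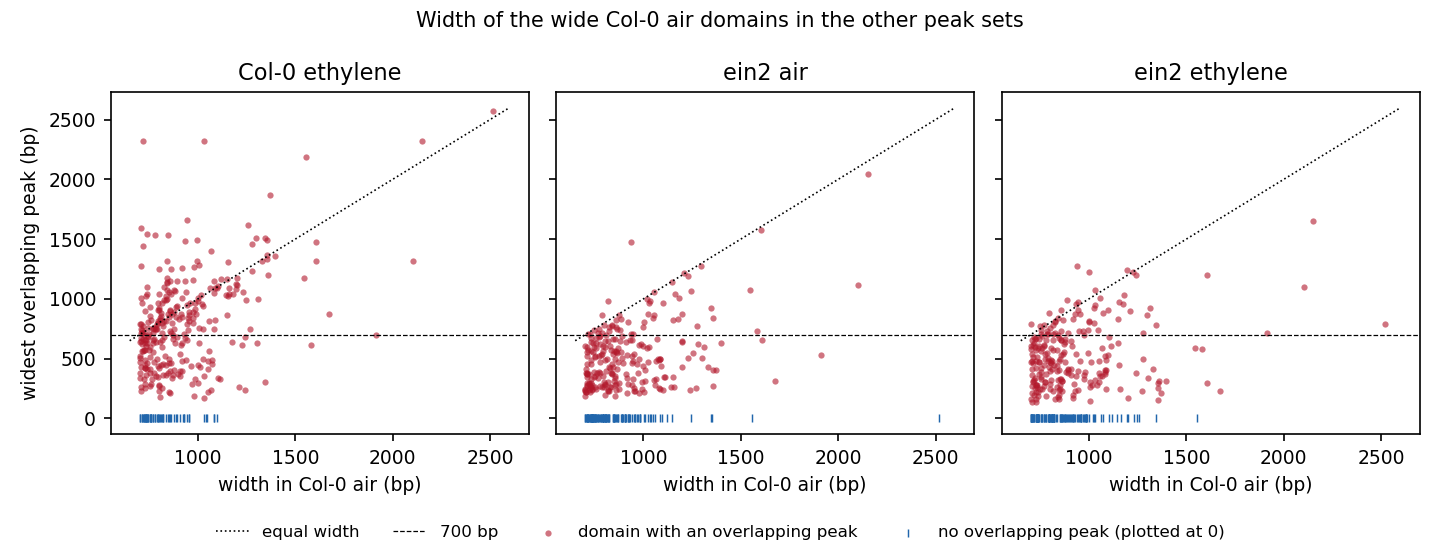
Width of the widest overlapping peak in each of the other sets (1 panel per set, vertical axes, bp) against the width of the wide domain in Col-0 air (horizontal axes, bp), with 1 point per domain. Blue ticks at 0 are domains without a peak, the dotted line is equal width and the dashed line 700 bp. In Col-0 ethylene 95 of 291 points lie above the line of equal width, against 5 of 240 in ein2 air and 12 of 237 in ein2 ethylene.

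A few domains were wide in an ein2 set. After LRX3, the widest overlapping peaks in ein2 air lay at GATA1 (1575 bp), KUF1 (1476 bp), the transcribed pseudogene AT1G05135 and AT5G25280 (1218 bp). KUF1, an F-box gene of the karrikin response, was 1150 bp wide in Col-0 ethylene, 1476 bp in ein2 air and 351 bp in ein2 ethylene, against 935 bp in Col-0 air. In ein2 ethylene the widest ones after LRX3 lay at AT3G60110, at an intergenic domain on chromosome 1 (1245 bp), at U2AF35B (1227 bp) and at TGA1 (1225 bp). U2AF35B, a subunit of a splicing factor, had 1195 bp in ein2 air, 1227 bp in ein2 ethylene and the same 1227 bp in Col-0 air, while in Col-0 ethylene the widest peak there was 614 bp. TGA1, a bZIP factor of the defence response, was 1225 bp wide in ein2 ethylene, against 447 bp in Col-0 ethylene, 441 bp in ein2 air and 1000 bp in Col-0 air. At SIP1, a raffinose synthase gene (AT5G40390), a Col-0 ethylene peak of 2323 bp spanned 2 wide domains of 1030 bp and 716 bp.

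Most wide domains lay over genes. A gene was the main overlap for 328 of them, protein-coding for 316 and of another kind for 12, among them 6 transcribed pseudogenes, and 18 touched no gene. The summit lay in a protein-coding gene for 79.2% of wide domains (74.6 to 83.1), against 69.9% of narrower peaks (68.8 to 70.9). It lay within 300 bp of a gene edge for 38.7% (33.7 to 44.0), against 72.8% (71.8 to 73.8) of narrower peaks. The median distance from the summit to the nearest edge was 372 bp in wide domains and 131 bp in narrower peaks. Taking the centre in place of the summit gave 39.0% of wide domains near an edge, against 73.8% of narrower peaks. The summits of wide domains thus lay farther from gene edges than those of narrower peaks. Another Col-0 air peak lay within 500 bp for 26.0% of wide domains (21.7 to 30.9), against 11.9% of narrower peaks (11.2 to 12.6).

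The share of the gene covered is linked to the choice by width, and is given as description. Wide domains covered a median of 33.1% of their protein-coding gene, with quartiles of 18.99% and 50.6%, against 8.98% for narrower peaks. At least 50% was covered by 80 wide domains, or 25.3% (20.8 to 30.4), against 1.06% of narrower peaks. At least 90% was covered by 11 wide domains. The genes were somewhat shorter than those under narrower peaks, with a median span of 2163.5 bp against 2518 bp, and 2078 bp over all protein-coding genes. Besides ERF-1 and WRKY15 (89.4%), the most fully covered genes of 1000 bp or more were AT1G31240 (94.4%), AT1G62520 (89.4%) and ECI1 (89.2%), an enoyl-CoA isomerase of fatty acid breakdown. In position, 122 domains lay inside their gene, 194 crossed 1 edge of it and 12 covered it whole.

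**Figure D5:**
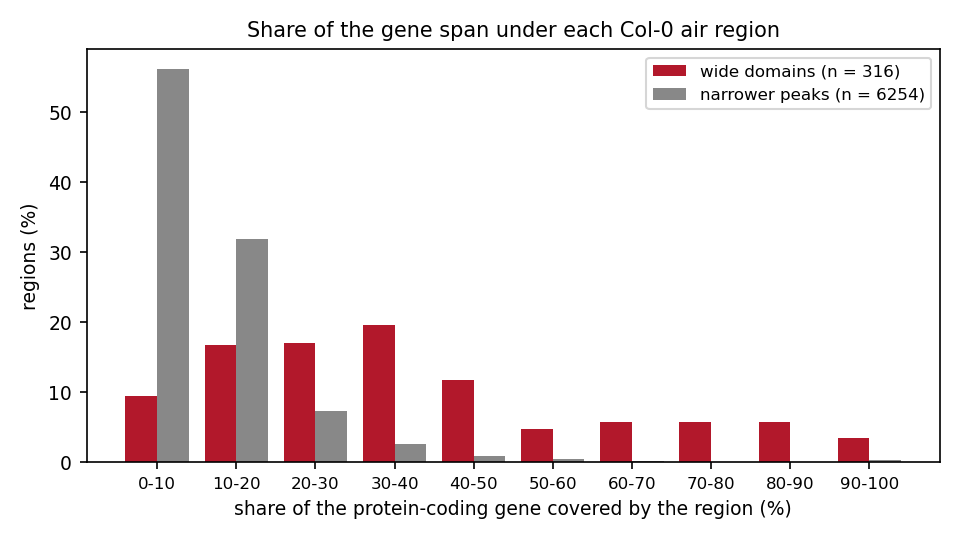
Share of Col-0 air regions (vertical axis, %) by the share of the protein-coding gene span that the region covers (horizontal axis, %), for wide domains (red) and narrower peaks (grey). At least 50% of the gene was covered by 25.3% of wide domains, against 1.06% of narrower peaks.

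Presence elsewhere also went with the place of the domain. Of the 274 wide domains with the summit in a protein-coding gene, 67.5% (61.8 to 72.8) had a peak in ein2 air, 66.1% (60.3 to 71.4) in ein2 ethylene and 88.3% (84.0 to 91.6) in Col-0 ethylene. Of the 72 with the summit outside such genes, 76.4% (65.4 to 84.7) had one in ein2 air, 77.8% (66.9 to 85.8) in ein2 ethylene and 68.1% (56.6 to 77.7) in Col-0 ethylene. Domains in genes and domains outside them thus differed in opposite directions in Col-0 ethylene and in the ein2 sets, although in the ein2 sets the intervals overlapped. The domains outside genes had the higher fold, with a median of 5.60 against 4.89 in genes. Among wide domains below the median fold, the share in Col-0 ethylene was 81.5% (74.4 to 87.0) for the 146 in genes and 40.7% (24.5 to 59.3) for the 27 outside, while in ein2 air it was 42.5% and 40.7%, and in ein2 ethylene 40.4% and 44.4%. Among narrower peaks, more of those in genes than of those outside had a peak in each other set: 64.3% and 39.9% in Col-0 ethylene, 44.5% and 27.1% in ein2 air, 52.1% and 47.4% in ein2 ethylene.

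Width behaved in a like way. Of the wide domains in genes, 13.9% met a peak of 700 bp or more in ein2 air, 12.8% in ein2 ethylene and 54.4% in Col-0 ethylene. Of those outside genes, 18.1% did in ein2 air, 33.3% in ein2 ethylene and 26.4% in Col-0 ethylene. Over genes of every kind, 87 domains covered at least 50% of their gene, and of these 24 met such a peak in ein2 air, 20 in ein2 ethylene and 63 in Col-0 ethylene. For the 241 domains that covered less of their gene the numbers were 26 in ein2 air, 35 in ein2 ethylene and 102 in Col-0 ethylene. The former were also wider in Col-0 air, with a median of 1002 bp against 817 bp.

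The genes were sorted by function from their symbols, a grouping made after the values were seen. The domains lay on 322 distinct genes, of which 150 have a symbol, and 94 were placed in a group. Some genes were placed in several groups, so the groups share domains and are not separate observations. The shares over all wide domains given above are the background for each group. Transcription factors formed the largest group, with 40 domains on 37 genes. They had a peak in Col-0 ethylene for 33, in ein2 air for 26 and in ein2 ethylene for 32. The group held 3 WRKY genes (WRKY15, WRKY11 and WRKY27), the GRAS genes HAM1 (AT2G45160), HAM3 and SCL8, the zinc finger homeodomain genes HB34 and HB23, and members of the ERF family such as RAP2.4, ORA47, CRF2 and DEAR2. HAM3, of the HAIRY MERISTEM genes that maintain shoot stem cells, carried a pair of domains of 1154 bp and 735 bp, and in Col-0 ethylene the peaks there were 1305 bp and 1020 bp wide. The wider one met a pair of peaks of 345 and 267 bp in ein2 air, over 53.0% of it, and a pair of 443 and 412 bp in ein2 ethylene, over 74.1%, while the other had none in either ein2 set. LBD37, a close relative of LBD38, also carried a pair, of 1097 bp and 822 bp, and the wider one met a peak of 534 bp in ein2 ethylene and none in Col-0 ethylene or ein2 air. Its other domain met a peak in each of these sets.

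Genes of the cell wall and cuticle made up 18 domains, and all 18 had a peak in Col-0 ethylene, against 11 in ein2 air and 12 in ein2 ethylene. In Col-0 ethylene 14 of these peaks were 700 bp or wider, against 1 in ein2 air and 3 in ein2 ethylene. AT4G18670 and AT3G24480, of the cell wall list, have no symbol and are not in this group. Their domains met peaks of 2568 and 1117 bp in Col-0 ethylene. In ein2 air only AT3G24480 met one, of 872 bp, and in ein2 ethylene only AT4G18670, of 790 bp. GAE1, an epimerase that makes a precursor of pectin, had 1459 bp in Col-0 ethylene, 624 bp in ein2 air and 500 bp in ein2 ethylene, against 1278 bp in Col-0 air. CYP86A8, an enzyme that makes cutin monomers, had 1402 bp in Col-0 ethylene, 328 bp in ein2 air and 358 bp in ein2 ethylene, against 1065 bp in Col-0 air. CYP86A2, of the same family, had 1150 bp in Col-0 ethylene, 461 bp in ein2 air and 377 bp in ein2 ethylene, against 893 bp in Col-0 air. At CYP86A8 and CYP86A2 the Col-0 ethylene peak covered over 97% of the domain, and the ein2 peaks at most 51.6%. GAE1 differed, since a pair of peaks of 458 and 500 bp in ein2 ethylene covered 74.96% of its domain and the single Col-0 ethylene peak, which reached beyond it, 56.3%. BXL1 and XYL4, both beta-xylosidases, had domains of 1346 bp and 1148 bp, and neither met a peak in ein2 air. In ein2 ethylene XYL4 met a peak of 631 bp and BXL1 none. In Col-0 ethylene XYL4 met a peak of 866 bp, and BXL1 one of 302 bp over 22.4% of its domain.

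Hormone synthesis gave 9 domains, with a peak for 4 in ein2 air, 2 in ein2 ethylene and 8 in Col-0 ethylene. The NCED enzymes make the precursor of abscisic acid, and 3 of the 7 genes with that name had a wide domain. NCED3 had 943 bp in Col-0 ethylene and 891 bp in Col-0 air, and neither ein2 set had a peak on the domain, although both had 1 near an end of the gene, of 256 bp in ein2 air and 366 bp in ein2 ethylene. NCED2 had 874 bp in Col-0 ethylene, 247 bp in ein2 air and none in ein2 ethylene, against 992 bp in Col-0 air. NCED5 had 641 bp in Col-0 ethylene, 238 bp in ein2 air and none in ein2 ethylene, against 702 bp in Col-0 air. The 3 NCED domains were thus shared with Col-0 ethylene and absent from ein2 ethylene. AOS, an early enzyme of jasmonate synthesis, had 848 bp in Col-0 ethylene, 287 bp in ein2 air and none on the domain in ein2 ethylene, against 920 bp in Col-0 air. A further peak of AOS, near the other end of the gene, was present in all 4 sets, with 410 bp in ein2 ethylene. OPR3, a later enzyme of jasmonate synthesis, differed from AOS. Its domain met peaks of 462 bp in Col-0 ethylene, 763 bp in ein2 air and 315 bp in ein2 ethylene. DET2, a reductase of brassinosteroid synthesis, had 912 bp in Col-0 ethylene, none in the ein2 sets and 985 bp in Col-0 air. DWF4, a cytochrome P450 of the same pathway, went the other way, with none in Col-0 ethylene or ein2 air, 660 bp in ein2 ethylene and 858 bp in Col-0 air. The median fold of these 9 domains was 4.45, against 5.02 for all wide domains, and domains of low fold were shared less with the ein2 sets in general; the part of fold in this pattern was not tested.

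Hormone signalling genes held 12 domains, of which 6 had a peak in ein2 air, 7 in ein2 ethylene and 9 in Col-0 ethylene. RGL2, a DELLA repressor of gibberellin responses, had 1315 bp in Col-0 ethylene, none in ein2 air and 178 bp in ein2 ethylene, against 842 bp in Col-0 air. ARR4, a response regulator of cytokinin signalling, had peaks of over 500 bp in all sets, with 744 bp in Col-0 ethylene, 712 bp in ein2 air and 544 bp in ein2 ethylene, against 787 bp in Col-0 air. Kinase and receptor genes held 9 domains, of which 9 had a peak in ein2 air, 7 in ein2 ethylene and 7 in Col-0 ethylene. The peak reached 700 bp for 0 in ein2 air, 1 in ein2 ethylene and 6 in Col-0 ethylene, and the ein2 numbers are near the shares over all wide domains. UCN, a protein kinase of ovule development, and UCNL, its close relative, had 1262 bp and 1537 bp in Col-0 ethylene, against 917 bp and 846 bp in Col-0 air. FER, a receptor kinase of cell growth, had none in Col-0 ethylene, 241 bp in ein2 air and 576 bp in ein2 ethylene, against 816 bp in Col-0 air. Ubiquitin ligase and F-box genes held 12 domains, with a peak for 9 in ein2 air, 8 in ein2 ethylene and 9 in Col-0 ethylene. Cytochromes P450 held 10, with a peak for 7 in ein2 air, 6 in ein2 ethylene and 8 in Col-0 ethylene, and the peak reached 700 bp for 0 in either ein2 set and 8 in Col-0 ethylene, beside 14.7%, 17.1% and 48.6% of all wide domains in ein2 air, ein2 ethylene and Col-0 ethylene.

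A wide domain touched 372 of 27444 protein-coding genes, or 1.36%, and any Col-0 air peak touched 6907, or 25.2%. In 12 gene lists, chosen with earlier results of these data known, 11 of 154 genes, or 7.14%, were touched by a wide domain. They were EIN2 and EBF1 among 16 genes of ethylene signalling, of which 11 had some Col-0 air peak, ERF-1, ERF4 and EDF3 among 22 ERF and EDF factors (13 with some peak), AOS and MYC2 among 15 jasmonate genes (8), RGL2 among 8 gibberellin genes (6), and LRX3, AT4G18670 and AT3G24480 among 8 cell wall genes (6). At MYC2 the domain had its largest overlap with another gene. No gene was touched in the lists of ENAP genes (0 of 2, both with a narrower peak), histone acetylation and deacetylation (0 of 19, 13 with a narrower peak), auxin (0 of 18, 9), the clock (0 of 12, 7), light signalling (0 of 14, 6), housekeeping (0 of 13, 7) and heat shock proteins (0 of 7, none with a peak). By symbol, 11 of 245 cytochrome P450 genes had a wide domain, 3 of 72 WRKY genes, 3 of 82 NAC genes, 3 of 40 LBD genes, 2 of 30 GATA genes, 2 of 4 BXL genes and 2 of 2 WAVH genes, which encode RING proteins.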

How the data were processed

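ENAP1 ChIP and input samples of 4 conditions were used through 1 deposited peak file per condition. Per the submitters' processing notes, BWA, MACS2 2.1.0.20150603 and TAIR10 were used. The sources used here give neither calling thresholds nor whether replicates were pooled. The deposited files give, for each peak, a fold enrichment, which is a ratio, and −log10 q, both taken from the authors' peak caller. The authors' −log10 p served only as a score to rank peaks within a set. A further 2 peak files are named in no label and were not used. Widths, overlaps of at least 1 bp and gene cover were computed with Python 3.11.15, pandas 2.3.3, numpy 2.4.6 and scipy 1.17.1, and the interval code was tested on simulated data. Gene spans were read from a RefSeq table (TAIR10.1), matched by locus, so none of its coordinates is printed; it holds neither strand nor exons. As a build check, 71.3% of Col-0 air summits lay within 300 bp of a gene edge, against at most 25.9% after shifts of 2000 bp or more. Edges in all such distances are those of protein-coding genes. The gene of a domain is the one with the largest overlap, protein-coding first. The name ENAP1 for AT3G11100 is general knowledge, since the table gives that locus no symbol. Genes were named by rule: the 10 widest domains, the 5 nearest the limit on each side, the 5 widest absent elsewhere, the 5 widest in each other set, the 5 most fully covered genes, list members, and ENAP1, EIN2 and EIN3. Genes in the function groups, runs and pairs were named after their values were seen. The domains and the gene lists were chosen with earlier results of these data known. Alternatives were other width minima, stricter overlap, a common −log10 q minimum, equal numbers of peaks and joined peaks. No test was run, since each condition has 1 peak set.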

Additional observations from a re-analysis of the deposited data

How the results depend on the processing

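Of 53 alternative values, 21 stayed within the interval of the reported value (for counts, within 1.5 times) and 32 moved. A minimum of 500 bp gave 1158 domains and 1000 bp gave 87, against 346. At 500 bp the share with a peak was 70.6% in Col-0 ethylene and 59.0% in ein2 air, the share with a peak of that width 19.4% in ein2 air, 22.97% in ein2 ethylene and 42.7% in Col-0 ethylene, the share covering 50% of a gene 11.3%, and 30 list genes were touched. At 1000 bp the share with a peak was 81.6% in ein2 air, 80.5% in ein2 ethylene and 93.1% in Col-0 ethylene, the share as wide in ein2 ethylene 11.5%, the gene share 51.3%, and 5 list genes were touched. Genes of 1000 bp or more gave a gene share of 20.4%. When a peak had to cover 50% of the domain, 37.6% had one in ein2 air, 37.0% in ein2 ethylene and 65.9% in Col-0 ethylene. With the common −log10 q minimum of 13.4 the shares were 60.4% in ein2 air, 42.5% in ein2 ethylene and 79.8% in Col-0 ethylene, and in the lowest of 4 fold classes they were 19.5% for ein2 air and 4.598% for ein2 ethylene. With equal numbers of peaks they were 88.8% in ein2 air and 88.4% in Col-0 ethylene, and, for the 19 domains left in that class, 52.6% in ein2 air, 5.26% in ein2 ethylene and 100% in Col-0 ethylene. With the same share of each set, 25.7% were wide in ein2 air, 24.9% in ein2 ethylene and 38.4% in Col-0 ethylene. The same-share setting, the lowest fold class under these settings and the centre of narrower peaks were added after seeing the data. No paired analysis was possible because both replicates of a condition share 1 peak set, and for the same reason no replicate could be left out. Promoter motifs were not run, since no promoter sequence was used here. Unknown depth limits every count: a region without a peak may lie below the threshold of that set.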

Other observations

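Some wide domains lay close together. Within 3000 bp of another wide domain lay 32 of 346, in 15 runs, of which 2 held 3 domains. In the run of 3835 bp on chromosome 3 the domains of 710, 1026 and 753 bp lay on AT3G13700, PRA1.F4 and PRA8. A pair of wide domains was carried by 6 genes, namely PP2CA, GATA1, AT3G60110, HAM3, SIP1 and LBD37, and together the pair covered from 39.4% of SIP1 to 84.6% of GATA1.

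The 18 domains without a gene had a peak in Col-0 ethylene for 9, in ein2 air for 10 and in ein2 ethylene for 13. A domain of 1197 bp on chromosome 1, at 11649906 to 11651102, had a fold of 9.31 and met peaks of 1082 bp in Col-0 ethylene, 637 bp in ein2 air and 1245 bp in ein2 ethylene. A domain of 702 bp on chromosome 4, at 9897338 to 9898039, met a peak of 790 bp in ein2 ethylene and none in Col-0 ethylene or ein2 air. The nearest gene edge to the intergenic summits lay 404 to 5296 bp away.

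Among the 12 domains on genes that are not protein-coding, 6 lay on transcribed pseudogenes. The domain at AT1G05135 was 1298 bp wide and covered 91.8% of that pseudogene.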
